A study of Mus musculus with 6 samples.

Results

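The Hox genes of the mouse lie in 4 clusters, Hoxa on chromosome 6, Hoxb on chromosome 11, Hoxc on chromosome 15 and Hoxd on chromosome 2. Every gene of the expression table with a symbol of the form Hoxa, Hoxb, Hoxc or Hoxd followed by a number was taken, which gave 39 of 23235 genes: 11 Hoxa, 10 Hoxb, 9 Hoxc and 9 Hoxd genes. A gene was counted as expressed in a genotype when its mean over the libraries of that genotype was at least 1 FPKM (a fragment count scaled to the length of the transcript and to the total of the library). RNA came from LT-HSCs, the long-term stem cells of the blood that sustain its formation, sorted from the bone marrow of mice aged 2 months. Both groups carried the strain label C57BL/6; 1 group was wild type (WT) and the other was an Hmces knockout (KO), with 3 libraries each, and HMCES is a protein that shields abasic sites in single-stranded DNA. The sources used here do not give the Hmces allele, the antibodies of the sort or the number of mice behind a library. The tag 13bp stands in every library title, WT and KO alike, and is not explained.

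Hox genes encode homeodomain transcription factors that give cells a position along the body axis. Genes at the 3′ end of a cluster (low numbers) are used in anterior regions and genes at the 5′ end (high numbers) in posterior regions, and genes with the same number in different clusters are paralogues, which fall into 13 groups. In blood formation the Hoxa genes around Hoxa9 are known to be active in stem cells and early progenitors and to be shut off as cells mature. HOX proteins bind DNA with partners of the TALE homeodomain class such as MEIS1 and PBX proteins. MLL and menin keep the active genes on, and Polycomb complexes keep the others off.

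The libraries held an estimated 9300000 to 14200000 fragments each. Hmces (8430410A17Rik in the table) had WT values of 39.5, 45.4 and 41.0 FPKM. Its KO values were 8.95, 0.222 and 6.95 FPKM, all below WT, in the direction of the labels. Even so, limma did not call Hmces at an adjusted p under 0.05. KO replicate 2 was the library least like the rest, with a median Pearson correlation of log2(FPKM + 1) across genes of 0.893 with the other libraries, against 0.902 to 0.920 for the others. All 10 LT-HSC marker genes were above 0 in every library, among them Procr (mean 26.8 FPKM in WT and 23.6 in KO), Hlf (9.89 and 10.6) and Mecom (5.81 and 5.56). Their summed level was 499.5 to 544.5 FPKM in WT and 576.0 to 591.6 FPKM in KO libraries, and Ly6a (230.8 and 310.8) and Tek (7.59 and 9.77) were higher in every KO library than in any WT library. Genes known to be low in LT-HSCs were also present, with Cd34 at 487 and 471.5 FPKM, Cd48 at 179.6 and 279.3 FPKM and Flt3 at 137.4 and 141.3 FPKM, all above the stem cell gene Slamf1 at 3.46 and 2.43 FPKM. Fcgr3 (5.56 and 26.3 FPKM), Il7r (1.64 and 5.33 FPKM) and Cd48, 3 of the 5 progenitor markers, were higher in every KO library than in any WT library. All 12 granulocyte and monocyte markers were detected in every library. Their summed level was 6549 to 10320 FPKM in WT and 18640 to 25010 FPKM in KO libraries. Of the 12, 11 were higher in every KO library than in any WT library, against 7.47% of all genes tested. By limma 2 of the 12 were called, with log2 fold changes (KO minus WT) of 2.73 for Mpo and 3.51 for Ctsg. The limma adjusted p was 0.0307 for Mpo and 0.0494 for Ctsg. Among the markers tested of other cells, 1 of 3 B cell and 1 of 2 T and NK cell genes were higher in every KO library than in any WT library. Of 5 erythroid, 5 megakaryocyte and 3 endothelial markers tested, 0 had groups apart in either direction. No marker of these 5 lists was called by limma. The part of any of the cell type markers in the Hox levels was not tested. In RNA from sorted pools, fewer cells that use a Hox gene and less of its RNA per cell cannot be told apart.

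In WT LT-HSCs 6 of the 39 Hox genes were expressed, Hoxa5, Hoxa6, Hoxa7, Hoxa9, Hoxa10 and Hoxb2. The 5 Hoxa genes among them are neighbours on the chromosome, the fifth to the ninth of the 11 genes of the cluster counted from its 3′ end. In KO cells 6 genes were expressed as well, and 5 were shared: Hoxa3 replaced Hoxb2. No Hoxc or Hoxd gene was expressed in either genotype. By cluster, the expressed genes were 5 Hoxa and 1 Hoxb in WT and 6 Hoxa and 0 Hoxb in KO cells.

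**Figure D1:**
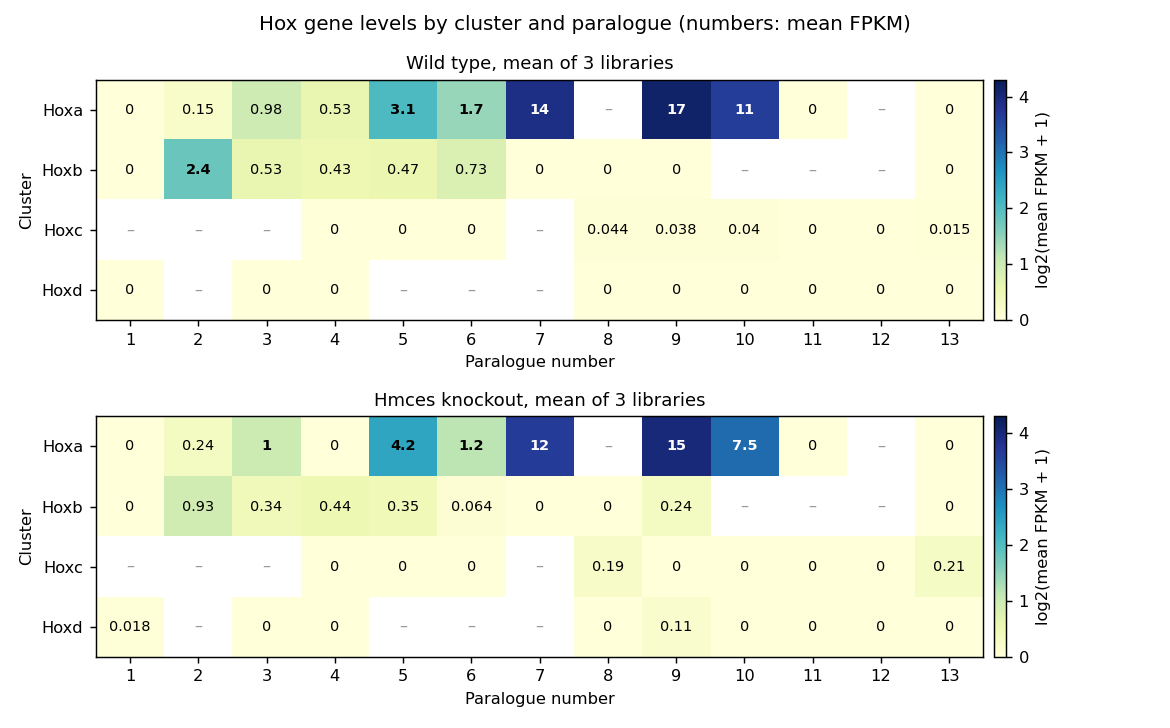
Mean FPKM of each Hox gene (numbers in the cells, n = 3 libraries per genotype) by cluster (rows) and paralogue number (columns), coloured by log2(mean FPKM + 1), with means of at least 1 in bold and a dash where the cluster has no such gene. The dark cells are Hoxa7, Hoxa9 and Hoxa10 in both genotypes, and the Hoxc and Hoxd rows stay below 1.

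The exchange of Hoxa3 for Hoxb2 took place close to the threshold. In WT the lowest gene inside it was Hoxa6 at 1.70 FPKM and the highest outside was Hoxa3 at 0.981 FPKM. In KO cells the lowest inside was Hoxa3 at 1.01 FPKM and the highest outside was Hoxb2 at 0.934 FPKM. Without KO replicate 2 the 6 genes expressed in KO cells were the same 6 as in WT, and without KO replicate 3 neither Hoxa3 nor Hoxb2 was expressed in them, which left 5 genes. By the median of the libraries, or after rescaling every library to the same sum, the same 7 genes were expressed in both genotypes, Hoxa3 and Hoxb2 included.

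The sequences upstream of the start are shown for Hoxa9 and Hoxa10, which are expressed at the 5′ edge of the active stretch, and for Hoxa11, their next neighbour, which was listed at 0 in all 6 libraries. Each is the 250 bases before a RefSeq start (build GRCm38.p6, minus strand, 5′ to 3′), with CpG dinucleotides in capitals. Hoxa10 has 2 annotated starts. The regions are chr6:52227371-52227620 for Hoxa9, chr6:52240855-52241104 and chr6:52234940-52235189 for the 2 windows of Hoxa10, and chr6:52245811-52246060 for Hoxa11.
Hoxa9: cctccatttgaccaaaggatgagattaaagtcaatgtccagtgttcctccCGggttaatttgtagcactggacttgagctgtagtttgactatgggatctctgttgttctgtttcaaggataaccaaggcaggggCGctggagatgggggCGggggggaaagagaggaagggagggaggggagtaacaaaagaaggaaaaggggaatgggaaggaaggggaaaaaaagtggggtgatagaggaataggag
Hoxa10, window 1: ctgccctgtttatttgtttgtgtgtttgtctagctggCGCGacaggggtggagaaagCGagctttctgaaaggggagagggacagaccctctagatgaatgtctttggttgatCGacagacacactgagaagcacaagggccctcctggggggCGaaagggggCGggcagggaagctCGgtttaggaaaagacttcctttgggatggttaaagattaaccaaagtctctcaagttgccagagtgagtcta
Hoxa10, window 2: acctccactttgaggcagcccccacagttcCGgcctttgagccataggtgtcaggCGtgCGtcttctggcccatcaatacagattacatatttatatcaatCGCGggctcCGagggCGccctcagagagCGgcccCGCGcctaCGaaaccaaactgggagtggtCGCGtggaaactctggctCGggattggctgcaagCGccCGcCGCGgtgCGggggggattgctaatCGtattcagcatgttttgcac
Hoxa11: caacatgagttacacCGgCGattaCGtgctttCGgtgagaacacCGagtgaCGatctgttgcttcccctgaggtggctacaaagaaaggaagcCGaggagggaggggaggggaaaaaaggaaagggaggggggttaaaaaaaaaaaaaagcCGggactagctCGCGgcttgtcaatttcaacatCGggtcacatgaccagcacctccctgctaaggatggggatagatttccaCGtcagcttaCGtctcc
The Hoxa9 window holds 3 CpG dinucleotides, the Hoxa10 windows hold 7 and 20, and the Hoxa11 window holds 13. An upstream window was found for 22 of the 39 Hox genes, with 24 windows in all. The 6 windows of genes expressed in WT held 3 to 28 CpG dinucleotides (median 13.5) and the 18 windows of genes below the threshold held 2 to 35 (median 12.5). At least 10 were held by 3 of the 6 and by 12 of the 18, against 38.1% of all 32544 windows, whose median was 6. The Hox windows of both kinds therefore overlapped in this count. The letters TGACAG, bound by MEIS proteins, were searched on both strands and lay in 2 of 24 Hox windows (Hoxa2 and Hoxa3) and in 15.8% of all windows. TGATTNAT, bound by PBX and HOX proteins together, lay in 2 of 24 (Hoxa2 and a window of Hoxd11) and in 2.83% of all windows. Neither string lay in the 6 windows of genes expressed in WT. Hoxb2 had no window and was not searched. Hoxa3, which held TGACAG, lay at the threshold, with means of 0.981 FPKM in WT and 1.01 FPKM in KO cells.

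Hoxa9 was the most abundant Hox gene in WT and in KO cells by mean level. HOXA9 is needed for normal stem and progenitor cell function and is a driver of acute leukaemia when its level stays high. Its WT values were 19.2, 16.7 and 13.7 FPKM, and its KO values were 14.01, 11.1 and 19.99 FPKM. The highest and the lowest of the 6 values were both in KO libraries, so the groups overlap. The means were 16.6 ± 2.75 FPKM in WT and 15.0 ± 4.53 FPKM in KO cells (SD, n = 3 each), and the log2 fold change (KO minus WT, on log2(FPKM + 1)) was -0.16, with a 95% interval from -0.75 to 0.43 (SE 0.25, limma adjusted p = 0.875). Without KO replicate 2 the estimate was 0.03.

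Hoxa7 followed. It is a neighbour of Hoxa9 that is switched on with it in leukaemia carrying MLL fusions. Its values were 15.9, 16.2 and 9.23 FPKM in WT and 10.6, 14.1 and 10.2 FPKM in KO libraries. WT replicate 3 was the lowest of the 6, below every KO library. The means were 13.8 ± 3.94 and 11.7 ± 2.14 FPKM (SD, n = 3 each), and the log2 fold change was -0.20 with a 95% interval from -0.82 to 0.43 (SE 0.27, limma adjusted p = 0.844).

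Hoxa10 was the abundant Hox gene whose groups did not overlap. HOXA10 acts in stem cells and in myeloid and megakaryocyte progenitors. The WT libraries were tightly grouped at 11.1, 11.5 and 11.7 FPKM, and the KO libraries were at 6.62, 6.28 and 9.59 FPKM. The highest KO value lay under the lowest WT value. The means were 11.4 ± 0.327 and 7.50 ± 1.82 FPKM (SD, n = 3 each), a KO level 0.656 times that of WT, with an exact permutation p of 0.1, the smallest that 3 against 3 libraries allow. The log2 fold change was -0.57, with a 95% interval from -1.12 to -0.02 (SE 0.24), and was not called by limma (adjusted p = 0.535, unadjusted p = 0.0425). It was -0.47 without KO replicate 2 (limma adjusted p = 0.596).

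Hoxa5 and Hoxa6 were expressed at lower levels at the 3′ edge of the active stretch. HOXA5 takes part in lineage choice of progenitors, and Hoxa6 is less studied in blood. Hoxa5 had WT values of 3.81, 3.58 and 2.01 FPKM and KO values of 3.31, 5.11 and 4.29 FPKM. WT replicate 3 was again the lowest. Its means were 3.13 ± 0.979 and 4.24 ± 0.899 FPKM (SD, n = 3 each), and it was the 1 tested Hox gene with a positive log2 fold change, 0.36, with a 95% interval from -0.38 to 1.10 (SE 0.32, limma adjusted p = 0.758). Hoxa6 had WT values of 2.49, 0.920 and 1.70 FPKM and KO values of 1.69, 1.08 and 0.866 FPKM. Both genotypes had a library below 1 FPKM. Estimated fragments of Hoxa6 were 16.3, 8.1 and 16.3 in WT and 10.8, 8.1 and 5.4 in KO libraries. These were the fewest of the genes expressed in WT, so the level of Hoxa6 rests on very few reads. The means were 1.70 ± 0.785 and 1.21 ± 0.428 FPKM (SD, n = 3 each), with a log2 fold change of -0.26 and a 95% interval from -1.14 to 0.61 (SE 0.38, limma adjusted p = 0.852). Hoxa6 and Hoxa5 overlap Hoxa3 in the annotation, and use of strand in counting is not stated, so levels of these 3 genes are less certain than those of Hoxa7 and Hoxa9, which overlap no other RefSeq gene.

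Hoxb2 was the Hoxb gene above the threshold in WT. HOXB2 is best known for patterning the hindbrain. Its WT values were 1.87, 1.81 and 3.64 FPKM, and its KO values were 1.10, 0.4997 and 1.20 FPKM. Every KO value lay below every WT value, and WT replicate 3 stood highest. The means were 2.44 ± 1.04 and 0.934 ± 0.380 FPKM (SD, n = 3 each), a KO level 0.383 times that of WT, with an exact permutation p of 0.1. The log2 fold change of -0.81 had a 95% interval from -1.67 to 0.05 (SE 0.37) and was not called by limma (adjusted p = 0.563, unadjusted p = 0.0618). Estimated fragments were 53.3, 69.6 and 151.7 in WT and 30.7, 16.3 and 32.8 in KO libraries, so the level rests on few reads. With a pseudocount of 0.1 in place of 1 the log2 fold change was -1.30. Hoxb2 overlaps the transcript Hoxb3os in the annotation.

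**Figure D2:**
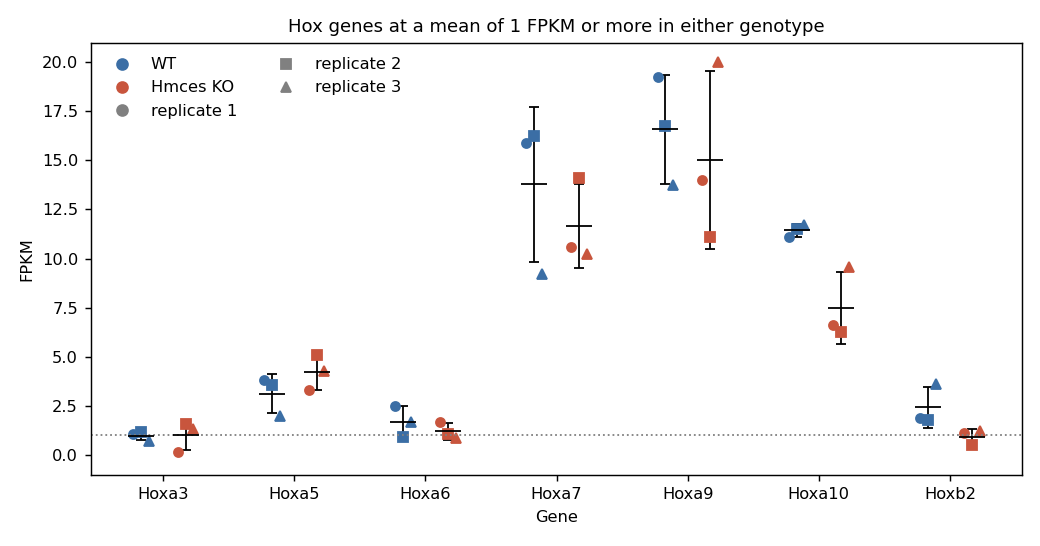
FPKM of the 7 Hox genes with a mean of at least 1 in either genotype, with WT in blue, Hmces knockout in red, marker shapes for replicates, and a black line and bar for mean and SD (n = 3); the dotted line marks 1 FPKM. The red Hoxa10 and Hoxb2 points lie below all blue points, whereas the other genes overlap.

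Of the 6 Hox genes that could be tested (mean of at least 1 FPKM over the 6 libraries), 0 were called by limma at an adjusted p under 0.05, against 0.113% of the 11532 genes tested, 0.104% higher and 0.00867% lower in KO cells. Hmces itself was not called either, so the absence of a call does not show that a level is unchanged. An unadjusted p under 0.05 was reached by 1 of the 6, Hoxa10, against 9.16% of all genes tested, or 4.84% on the lower side. Hoxa10 and Hoxb2 made 2 of 6 whose KO values all lay below WT, against 8.34% of all genes tested. Higher in every KO library were 0 of 6, against 7.47% of all genes, so that 15.8% of all genes had groups apart in either direction. The median log2 fold change of the 6 was -0.23, 5 of 6 were negative, and over all genes tested the median was -0.01 with 51.9% negative. No label ties a library to its own mouse, so these p-values measure only the spread between the samples, which may be technical. Hoxa3, at 1.05, 1.17 and 0.719 FPKM in WT and 0.134, 1.56 and 1.33 FPKM in KO libraries, had a mean just under 1 over the 6 libraries and was not tested.

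**Figure D3:**
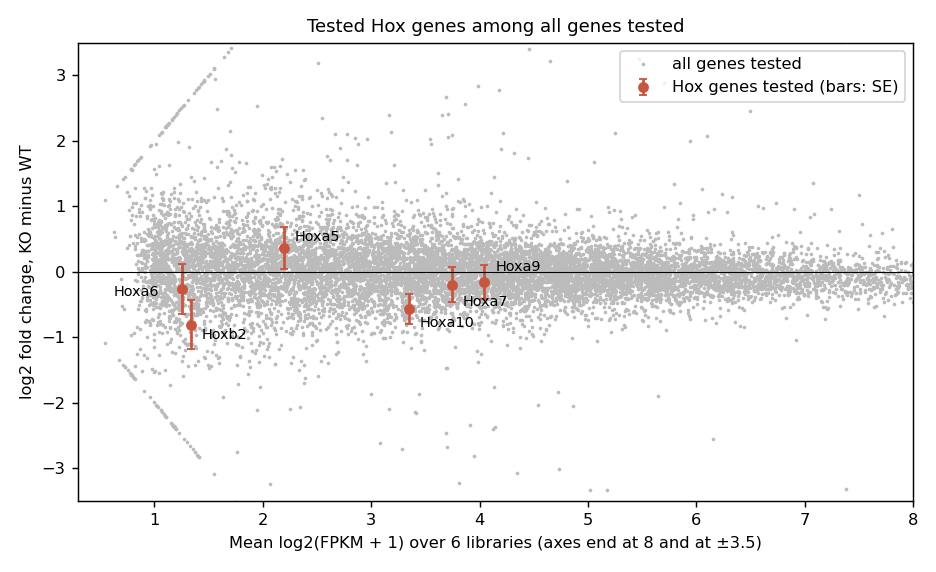
Each point is a gene tested, at its mean log2(FPKM + 1) over 6 libraries (x) and its log2 fold change, KO minus WT (y); the 6 Hox genes are in red with SE bars, and 457 genes lie outside the axes. The Hox genes sit within the cloud of all genes at like levels, Hoxa10 and Hoxb2 on its lower side.

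By mean level the first 4 genes had the same order in both genotypes, Hoxa9, Hoxa7, Hoxa10 and Hoxa5. Hoxa9 exceeded Hoxa7 in 3 WT and 2 KO libraries, with ranges that overlapped in both genotypes. Hoxa7 exceeded Hoxa10 in 2 WT and 3 KO libraries, with ranges that overlapped in WT and were apart in KO cells. The order of the genes was not tested. Hoxa10 exceeded Hoxa5 in all 6 libraries, with the ranges apart in both genotypes. Hoxa5 and Hoxb2 overlapped in WT and were apart in KO cells, and Hoxb2 and Hoxa6 overlapped in both. Among 11308 genes with a WT mean of at least 1 FPKM, Hoxa9 lay at the 53.9 percentile of WT levels, Hoxa7 at 49.3, Hoxa10 at 45.1, Hoxa5 at 17.3, Hoxb2 at 12.9 and Hoxa6 at 7.31.

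By paralogue group the Hoxa gene was the most abundant in WT in groups 3, 4, 5, 6, 7, 9 and 10, on the FPKM scale, which is per length. Hoxa3 made 64.9% of group 3, whose WT means summed to 1.51 FPKM. Hoxa4 led group 4, whose WT means summed to 0.956 FPKM. Hoxa7 made 100% of group 7 in WT, Hoxa9 made 99.8% of group 9 and Hoxa10 made 99.7% of group 10. Hoxa5 made 87.0% of group 5 and Hoxa6 made 69.9% of group 6, where Hoxb6 supplied the rest, mostly from 1 library. Among groups with a WT sum of at least 1 FPKM, group 2 was the exception, with Hoxb2 at 94.1% of that sum. Groups 11 and 12 were listed at 0 in every library, and groups 1, 8 and 13 stayed below 1 FPKM.

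Summed over its genes, the Hoxa cluster held most of the Hox level. Its summed FPKM was 53.7, 51.3 and 39.9 in WT and 36.4, 39.2 and 47.0 in KO libraries. WT replicate 3 lay below KO replicate 3, so the groups overlap. The means were 48.3 ± 7.39 and 40.9 ± 5.52 FPKM (SD, n = 3 each), a ratio of 0.847, and the Hoxa share of all Hox FPKM was 91.1% in WT and 93.4% in KO cells. The Hoxb sums were 4.50, 3.09 and 6.22 in WT and 2.36, 2.08 and 2.67 in KO libraries. Each KO value was below each WT value. Their means were 4.60 ± 1.57 and 2.37 ± 0.298 FPKM (SD, n = 3 each), a ratio of 0.515, to which Hoxb2 contributed the largest part: without it the ratio was 0.664. A sum over chosen genes was given no test.

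**Figure D4:**
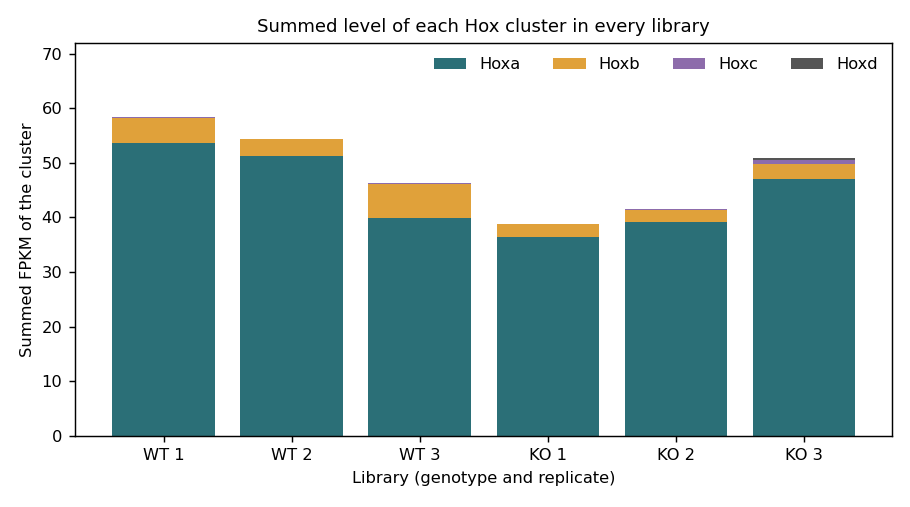
Summed FPKM of each Hox cluster, stacked, in every library (genotype and replicate number on the x axis). Hoxa makes up most of every bar, and the Hoxb layer is thinner in the 3 KO libraries.

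The Hoxb genes that are used to mark or expand stem cells were low. HOXB4 expands stem cells when overexpressed, and Hoxb5 reporters label LT-HSCs. Hoxb4 had WT values of 0.174, 0.161 and 0.9499 FPKM and KO values of 0.443, 0.791 and 0.0907 FPKM. Hoxb5 had WT values of 0.364, 0.135 and 0.912 FPKM and KO values of 0.0618, 0.684 and 0.317 FPKM. In both genes 1 library of each genotype held most of the level, WT replicate 3 and KO replicate 2. Estimated fragments were 1.5 to 33.5 for Hoxb5 and 2.0 to 31.9 for Hoxb4, and the WT and KO values of both genes overlap. Hoxb3 was at 0.430, 0.439 and 0.722 FPKM in WT and 0.673, 0.0286 and 0.310 FPKM in KO libraries. All 4 Hoxb genes above 0 in every WT library, namely Hoxb2 to Hoxb5, were highest in WT replicate 3.

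Of the 39 genes, 19 were listed at 0 in all 6 libraries: 3 Hoxa, 4 Hoxb, 5 Hoxc and 7 Hoxd genes. A count of 0 allows up to 3 fragments, which for these genes corresponds to 0.0667 to 0.388 FPKM and covers counting error only. A further 13 were above 0 somewhere but below 1 FPKM in the mean of both genotypes, with a highest single value of 1.65 FPKM, for Hoxb6 in WT replicate 1, an estimated 28.3 fragments. In KO replicate 3 Hoxc13 was read at 0.625 FPKM and Hoxd9 at 0.339 FPKM, an estimated 13.1 and 6.1 fragments, each with less or nothing elsewhere. Stromal cells of marrow use posterior Hox genes, and of 9 stromal markers 6 had means below 1 FPKM in both genotypes, Bglap was at 0 in every library, and Pdgfrb had 9.27 and 13.96 FPKM. Lepr, at 1.42 and 2.04 FPKM, was the 1 stromal marker higher in every KO library than in any WT library, against 7.47% of all genes tested. Other stromal markers went the other way. Cxcl12 was at 4.10 FPKM in WT replicate 1 and at 0 in every other library. Adipoq and Kitl were at 0 in every KO library but not in every WT library, and Col1a1 had the lower mean in KO cells. Col1a2 and Prrx1 had the higher mean in KO cells. The list summed to 9.63 to 18.4 FPKM in WT and 14.02 to 19.3 FPKM in KO libraries.

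Among the 14 low genes above 0 in any library, Hoxa3 included, 3 had groups that did not overlap. Hoxa4 was at 0.155, 0.688 and 0.741 FPKM in WT and listed at 0 in all 3 KO libraries, where 3 fragments would read as 0.194 to 0.231 FPKM, above the value of WT replicate 1. The WT values were an estimated 2.1, 12.6 and 14.7 fragments. Its log2 fold change was -0.59 (SE 0.23, limma adjusted p = 0.611) in the fit that kept genes with a mean of at least 0.1 FPKM, which tested 16 Hox genes and called 0 of them, against 0.0597% of 15079 genes. Hoxb9 was listed at 0 in WT and at 0.0838, 0.0714 and 0.558 FPKM in KO libraries, and Hoxc8 was at 0, 0.0351 and 0.0972 FPKM in WT and 0.145, 0.164 and 0.247 FPKM in KO libraries. For Hoxc8 these are 0 to 4.7 estimated fragments. Groups apart in either direction made up 5.96% of 7321 low genes. Non-overlap toward lower KO values was 1 of 14, against 1.98% of them, and toward higher values 2 of 14, against 3.97%.

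Other genes inside the clusters, mostly long noncoding RNAs and microRNAs, were partly covered: RefSeq lists 31, the table holds 11, and 7 of these were at 0 in every library. Mira, a noncoding RNA between Hoxa6 and Hoxa7, was at 1.38, 9.58 and 7.32 FPKM in WT and 10.2, 10.04 and 4.33 FPKM in KO libraries. The values overlap, with a log2 fold change of 0.55 (SE 0.58, limma adjusted p = 0.795). Mir196b, the microRNA gene between Hoxa9 and Hoxa10, had WT values of 122, 90.3 and 0 FPKM and was listed at 0 in all 3 KO libraries. WT replicate 3 shared the KO value, and the difference was not called (log2 fold change -4.49, SE 1.62, limma adjusted p = 0.495; exact permutation p = 0.4). FPKM of so short a gene moves by large steps per fragment, and this library type does not measure mature microRNAs. Mature sequences of 4 microRNAs of the clusters are shown because they share seeds across clusters, with the seed (bases 2 to 8) in capitals (RefSeq, GRCm38.p6).
miR-196b-5p: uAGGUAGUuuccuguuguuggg
miR-196a-5p: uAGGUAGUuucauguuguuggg
miR-10a-5p: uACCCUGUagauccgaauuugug
miR-10b-5p: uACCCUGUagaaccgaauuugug
miR-196b (chr6:52230129-52230150, minus strand) and miR-196a (chr11:96265187-96265208 and chr15:102973365-102973386, plus strand) share a seed, as do miR-10a (chr11:96317186-96317208) and miR-10b (chr2:74726074-74726096). The genes of miR-196a, miR-10a and miR-10b were at 0 in every library.

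Among the TALE partners of HOX proteins Meis1 was the most abundant. Of 11 listed, 8 were tested and 0 were called, with 3 positive and 5 negative log2 fold changes and a median of -0.06. Meis1, the partner of HOXA9 in leukaemia, had WT values of 147.6, 147.0 and 146.5 FPKM and KO values of 122, 148.7 and 160.3 FPKM. The means were 147 ± 0.540 and 143.7 ± 19.6 FPKM (SD, n = 3 each; limma adjusted p = 0.942). The KO values spanned the WT values. Pknox1 had 15.9 ± 5.12 FPKM in WT and 13.7 ± 4.34 FPKM in KO cells (SD, n = 3 each). Pbx3 was at 1.36, 1.80 and 1.99 FPKM in WT and 0.478, 0.0407 and 1.37 FPKM in KO libraries, with a log2 fold change of -0.81 (SE 0.41, limma adjusted p = 0.596). KO replicate 3 lay just above WT replicate 1, so the groups overlap. Tgif1, a repressor of the class, was at 45.0, 57.6 and 58.3 FPKM in WT and 58.8, 78.5 and 66.8 FPKM in KO libraries, without overlap and not called (log2 fold change 0.34, limma adjusted p = 0.588).

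Regulators that hold Hox genes on or off gave 0 calls as well. Of 17 MLL and menin complex genes 16 were tested, with 8 positive and 8 negative changes and a median of 0.01; the largest changes were those of Ash2l (-0.60, adjusted p = 0.677), Mllt3 (0.55, adjusted p = 0.623) and Mllt1 (-0.40, adjusted p = 0.697) by limma. Of 20 Polycomb genes 19 were tested, 7 positive and 12 negative, with a median of -0.06. Cbx7, a Polycomb subunit that supports stem cell self-renewal, had WT values of 7.11, 8.92 and 8.996 FPKM and KO values of 6.26, 0.463 and 3.47 FPKM. Its groups did not overlap and its log2 fold change of -1.36 was not called (SE 0.55, limma adjusted p = 0.532, unadjusted p = 0.0386). Ring1 (-0.49, limma adjusted p = 0.703) and Suz12 (-0.46, adjusted p = 0.759) were next.

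Upstream signals and downstream genes were also without a call. Of 15 CDX and retinoic acid genes 4 were tested, with a median log2 fold change of 0.03; Cdx2, an inducer of Hox genes in embryos, was at 0 in every library. Of 13 genes reported to follow HOXA9 and MEIS1, 7 were positive and 6 negative, with a median of 0.04. Lmo2, a stem cell regulator, had 432.7 ± 39.6 FPKM in WT and 312.1 ± 158 FPKM in KO cells (SD, n = 3 each), with a log2 fold change of -0.59 (limma adjusted p = 0.613). Id2 (0.36, adjusted p = 0.706) and Etv6 (0.33, adjusted p = 0.597) lay on the positive side. Of 18 tested genes that flank the clusters, 7 were positive and 11 negative with a median of -0.02 and 0 called. Skap2, next to the Hoxa cluster, was at 124.4, 142.8 and 115.5 FPKM in WT and 183.1, 155.6 and 169.2 FPKM in KO libraries (log2 fold change 0.41, SE 0.13, limma adjusted p = 0.452). Atp5g3 near the Hoxd cluster had 287.6 ± 8.85 and 217.9 ± 15.2 FPKM (SD, n = 3 each; log2 fold change -0.40, limma adjusted p = 0.332). Beside Hoxa13 and Hoxd13, Evx1 and Evx2 were at 0 in every library.

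**Figure D5:**
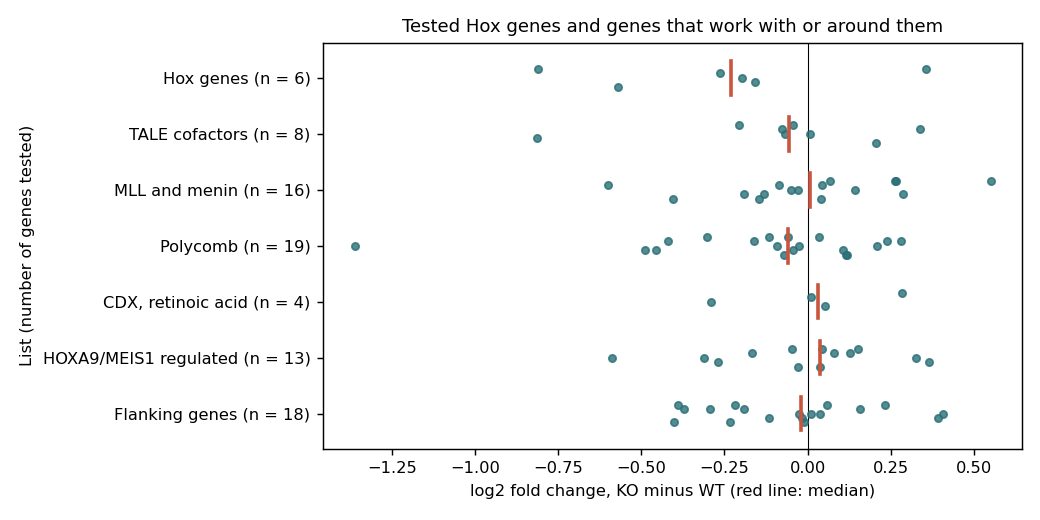
Log2 fold changes (KO minus WT, x) of the tested genes of each list (rows, number tested in brackets); each point is a gene and the red line is the median. The median of the 6 Hox genes is -0.23, and the medians of the other 6 lists drawn, which leave out cell type markers and RNAs inside the clusters, lie between -0.06 and 0.04.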

How the data were processed

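RNA of 1500 sorted LT-HSCs per library was amplified by Smart-seq2, 500 pg of cDNA entered each library and paired reads of 150 bp were sequenced, per the labels' protocols. The labels give 3 libraries per genotype and the design text mentions duplicates. The deposited table holds FPKM per gene and library. TopHat2 2.1.1, Cufflinks 2.2.1 and build mm9 are named in the submitters' processing notes; options, annotation and use of strand are not stated there. Such values are relative to the library total, and a value of 0 may be a failed estimate.

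Genes with a mean of at least 1 FPKM over the 6 libraries (11532) were fitted as log2(FPKM + 1) with limma 3.58.1 in R 4.3.3 (lmFit, eBayes with a variance trend), genotype as the only term, two-sided, with Benjamini-Hochberg adjustment over all genes tested and a call at an adjusted p under 0.05. The log scale understates changes of low genes. Single values were compared by an exact two-sided permutation test, whose smallest p is 0.1. Hox genes at a mean of at least 1 FPKM in either genotype are given in every library, all others by counts and ranges or as the values beside the threshold; Hoxa4, Hoxb3, Hoxb4, Hoxb5, Hoxb6, Hoxb9, Hoxc8, Hoxc13 and Hoxd9 were named after their values were seen. Of the TALE genes and RNAs inside the clusters those at a mean of at least 1 FPKM could be named, and of the other lists the called genes and the 3 with the largest change; cell type markers are given as counts, ranges and defining genes. Cdx2, Evx1, Evx2, Bglap, Ly6a, Tek, Fcgr3, Il7r, Pdgfrb and Lepr were also named after their values were seen. The same holds for Cxcl12, Adipoq, Kitl, Col1a1, Col1a2 and Prrx1. The members and lists were chosen with earlier results of these data known.

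Depth was inferred from the steps between low values of 1427 genes with transcripts over 1500 nt, assuming fragments of 200 nt, and gives 9300000 to 14200000 fragments per library; estimates of fragments depend on that assumption. Between 76.0% and 82.5% of low values came within 0.1 of a whole number of fragments, so no test on counts was run. The fit was tested on simulated data for the KO and WT comparison (11343 genes). Of 100 genes changed by 2 on the log2 scale 82 were called. Of 100 changed by 4 all 100 were called, and 8 unchanged genes were called. The changes were set only in genes at higher levels, above those of Hoxa5, Hoxa6 and Hoxb2. They were also larger than any log2 fold change of the tested Hox genes. Recovery of changes as small as those of the Hox genes was not tested. In the measured data Hmces was not called, although each KO value lay below each WT value. Neighbouring genes, microRNAs and upstream windows come from RefSeq (GRCm38.p6), which is not the build of the table. Alternatives tried were other pseudocounts, filters, quantile normalization, variance settings, no small RNA genes, a replicate block, other thresholds of expression and leaving out each library.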

Additional observations from a re-analysis of the deposited data

How the results depend on the processing

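Hox genes called were 0 under all 15 alternative fits. Of the 90 alternative fold changes of the 6 tested Hox genes 89 kept their direction. Many of the 90 could not differ: other filters, variance settings, no small RNA genes and the replicate block leave a fold change as it is. Only other pseudocounts, quantile normalization and leaving out a library could move it. The exception was Hoxa9 without KO replicate 2. Over the fits that leave out a library, the log2 fold changes of Hoxa9 ran from -0.37 to 0.0272, the positive value being that without KO replicate 2. Those of Hoxa10 ran from -0.74 to -0.47 and of Hoxb2 from -0.94 to -0.58. Hoxa5 ran from 0.14 (without WT replicate 3) to 0.49, Hoxa6 from -0.49 to -0.06 (without WT replicate 1) and Hoxa7 from -0.44 to -0.07 (without WT replicate 2). With a pseudocount of 0.1 Hoxb2 was at -1.30 and Hoxa6 at -0.41. The number of genes called over the whole table was 13, and it was 1 with no filter on low values, 6 with no variance trend, 20 with robust estimation, 32 without small RNA genes and 2 to 19 without a library, the lowest without KO replicate 3; the cause was not tested. Same-numbered libraries correlated at 0.0803, 0.0105 and 0.0352 in their deviations from the group means. Differently numbered libraries correlated at -0.0828 to 0.0484. So few pairs cannot show whether the numbers pair the libraries. With the replicate number as a block 2 genes and 0 Hox genes were called. The count of Hox genes expressed was 10 in WT and 7 in KO cells at a threshold of 0.5 FPKM. It was 5 in WT and 4 in KO cells at 2 FPKM, and likewise when every library had to reach 1 FPKM. By the median, or after rescaling, it was 7 in both genotypes. Leaving out a library gave 6 to 8 in WT and 5 to 6 in KO cells, a Hoxa ratio of 0.779 to 0.897, a Hoxb ratio of 0.442 to 0.625 and a ratio over all Hox genes of 0.758 to 0.872. Depth limits statements on Hox genes below 1 FPKM, and on Hoxa6 and Hoxb2.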
